A study of Mus musculus with 7 samples.

Results

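Enzymes that modify foreign compounds were examined in the duodenum of mice with and without intestinal PPARα. The members were the genes of the deposited expression table whose symbols belong to the cytochrome P450 subfamilies Cyp1a, Cyp1b, Cyp2a to Cyp2u and Cyp3a, to Ugt1a and Ugt2, to the Gst classes a, k, m, o, p and t, and to Sult1 to Sult6. They were found by symbol alone, but the families and the lists used below were chosen with earlier results of these data known. Of 14795 genes in the table, 60 were members, with 26 phase I Cyp genes, 10 Ugt genes, 18 Gst genes and 6 Sult genes. All 7 mice carried loxP sites in both copies of Ppara on a C57BL/6 background, and the genotypes are called here Ppara lox/lox (the control, labelled WT, 3 mice) and Ppara I-KO (labelled KO, 4 mice with Villin-Cre). Villin-Cre acts in the epithelium of the intestine, so muscle, immune cells and other cells of the duodenum keep Ppara, and as the controls lack Cre, effects of Cre and of Ppara loss cannot be told apart. All were males kept on a high-fat diet for 8 weeks. The labels give neither sex nor diet, which come from the methods of the paper, and the ages of the mice are not given in the sources used here. Before they were killed the mice went 6 h without food and then had food for 6 h. That is the labels' account, and the methods of the paper state a fast of another length unless specified otherwise. Whole duodenum was used, and in such bulk RNA fewer cells of a type and less RNA per cell cannot be told apart.

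The small intestine meets drugs, plant compounds and pollutants from food before the liver does, and its enterocytes hold a large set of enzymes that clear them. Cytochromes P450 of phase I oxidise a compound, using electrons passed on by cytochrome P450 reductase. The phase II enzymes then attach a soluble group, which is glucuronic acid for the UDP-glucuronosyltransferases (Ugt), glutathione for the glutathione S-transferases (Gst) and sulfate for the sulfotransferases (Sult). Many of these genes are switched on by ligand-activated factors, among them AhR, which senses aromatic compounds, and the nuclear receptors PXR and CAR, which sense drugs and bile acids. PPARα is a nuclear receptor of the same superfamily that senses fatty acids.

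RefSeq gives a promoter stretch on GRCm38.p6 for 54 of the 60 members. The stretches of 3 genes on which the results below turn are printed here 5′ to 3′ in the direction of transcription. Cyp2b10 was the member with the smallest p, and Cyp2c65 and Cyp2c66 are adjacent genes that went together across the libraries. The stretch of Cyp2b10 lies on the plus strand at chr7:25897408-25897619 and covers the bases from 250 to 39 before the RefSeq start. Its capitals mark the AhR core GCGTG, read on the opposite strand, at 101 to 97 bases before the start. A second core lies at 9 to 5 bases before the start, outside the printed stretch. The stretches of Cyp2c65 (chr19:39060756-39061005, plus strand) and Cyp2c66 (chr19:39113648-39113897, plus strand) cover the 250 bases before the start. Their capitals mark the longest run that both share without a difference.
Cyp2b10: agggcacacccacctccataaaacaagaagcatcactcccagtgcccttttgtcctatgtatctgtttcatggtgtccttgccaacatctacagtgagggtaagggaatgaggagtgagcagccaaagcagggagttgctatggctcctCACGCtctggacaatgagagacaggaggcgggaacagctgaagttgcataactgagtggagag
Cyp2c65: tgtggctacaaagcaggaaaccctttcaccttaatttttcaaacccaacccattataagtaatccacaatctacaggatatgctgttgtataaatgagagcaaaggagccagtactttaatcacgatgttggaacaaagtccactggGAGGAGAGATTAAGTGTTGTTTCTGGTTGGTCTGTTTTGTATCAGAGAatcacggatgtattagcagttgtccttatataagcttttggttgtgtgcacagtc
Cyp2c66: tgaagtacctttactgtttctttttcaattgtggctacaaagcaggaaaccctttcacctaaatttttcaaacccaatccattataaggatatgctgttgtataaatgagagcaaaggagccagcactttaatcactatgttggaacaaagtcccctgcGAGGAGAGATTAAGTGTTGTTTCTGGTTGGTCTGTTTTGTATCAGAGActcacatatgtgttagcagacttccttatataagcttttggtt
The shared run of Cyp2c65 and Cyp2c66 is 48 bases long, and 208 of 221 aligned bases (94.1%) were identical between them. The AhR core GCGTG, searched on both strands from 250 bases before to 50 after the start, was found in 14 of 54 members (25.9%), among them Cyp1a1, Cyp1b1 and Cyp2b10. It was found in 35.2% of all promoters of that length and in 54.5% of those of the genes tested here. The antioxidant response element core TGACNNNGC was found in 6 of 54 members (11.1%), Cyp2c65, Cyp2c66, Cyp2j6, Gsta3, Gstm5 and Gstm7, against 14.0% of all promoters. A direct repeat of AGGTCA with 1 base between, the arrangement that PPARα with RXR is known to bind, was searched with up to 2 mismatches. It was found in 4 of 54 members (7.41%), Cyp2c29, Cyp3a25, Cyp3a59 and Ugt2b36, against 4.40% of all promoters. With 4 bases between, the repeat was found in 3 of 54 members (5.56%), Cyp3a11, Cyp3a44 and Ugt2b35, against 3.47% of all promoters, and with 3 bases between in Cyp2c55 alone (1.85% of members against 3.56%). Among the promoters of the genes tested here, 17.1% held the antioxidant response element core. With up to 2 mismatches, 3.78% of them held the repeat with 1 base between, 2.73% with 4 and 2.54% with 3. Without mismatches 0 members held any of these repeats in this window.

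The values are CPM as the authors deposited them, the reads of a gene scaled to an adjusted library size. Libraries held an estimated 20745155 to 25865823 reads on the listed genes, and 1 read was worth 0.0393 to 0.0530 CPM. All 10 enterocyte markers, from Vil1 to Epcam, were present, with a sum between 46424 and 61442 CPM. Markers of liver cells summed to 4.08 to 8.09 CPM, and those of the pancreatic acinar cell to 471 CPM in I-KO replicate 1, 109 CPM in lox/lox replicate 2 and at most 49.1 CPM in the other libraries. The targeted gene Ppara measured 53.4, 49.3 and 63.2 CPM in lox/lox and 33.0, 40.6, 47.5 and 69.9 CPM in the Cre-carrying mice. The library labelled I-KO replicate 4 thus lay above every lox/lox library, and Ppara differed by -0.25 on the log2 scale (standard error 0.22). Dropping that library gave -0.45, and dropping I-KO replicate 1 gave -0.10. Reads of Ppara from undeleted parts of the gene and from non-epithelial cells are part of this total, which is therefore no check of the recombination. The PPARα target gene Cpt1a, picked after its values were seen, had 72.8 CPM in the library labelled I-KO replicate 4 and 96.4 to 122 CPM in lox/lox. As 1 gene picked in this way, Cpt1a is no check of the genotype of that library.

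The duodenum carried transcripts of each family, at levels that span several orders of magnitude. Levels of different genes are compared as mean CPM per kb of exon over the 7 libraries. Among the Cyp genes, Cyp3a13 (659 CPM per kb) and Cyp3a11 (389 CPM per kb), which belong to the main drug-oxidising subfamily, were the most abundant. They were followed by Cyp2d26 at 203 CPM per kb, the CAR target Cyp2b10 at 166 CPM per kb and Cyp3a25 at 118 CPM per kb. Gsto1, an omega-class enzyme that also reduces dehydroascorbate, led the Gst family with 430 CPM per kb, ahead of Gstm3 (139 CPM per kb), Gsta4 (111 CPM per kb), Gstp1 (79.7 CPM per kb) and Gstt1 (71.2 CPM per kb). Of the Ugt genes, Ugt2b34 had 130 CPM per kb, Ugt2a3 36.3 CPM per kb, Ugt1a7c 35.7 CPM per kb, the bilirubin-conjugating Ugt1a1 25.2 CPM per kb and Ugt2b35 7.85 CPM per kb. Of the Sult genes, Sult1b1, which acts on phenols and thyroid hormone, had 167 CPM per kb, Sult1d1 65.0 CPM per kb and Sult2b1, a cholesterol sulfotransferase, 38.4 CPM per kb. Sult1a1 (2.74 CPM per kb) and Sult1c2 (0.991 CPM per kb) were much lower. The leads of Gsto1, Ugt2b34 and Sult1b1 in their families exceeded the range over the libraries. The ranges of Cyp3a13 and Cyp3a11 overlapped, as did those of Cyp2d26, Cyp2b10 and Cyp3a25 and those of neighbours from Gstm3 to Gstt1. So did those of Ugt2a3, Ugt1a7c and Ugt1a1, and those of Sult1d1 and Sult2b1. Within each library, however, Cyp3a13 lay above Cyp3a11 per kb, Cyp2d26 and Cyp2b10 above Cyp3a25, and Ugt2a3 and Ugt1a7c above Ugt1a1. The order of the other neighbours named here changed between libraries and is not resolved. At the low end were Cyp2c38, Cyp2c70, Cyp2j11 and Cyp3a59, which did not exceed 1 CPM in 3 libraries and were not tested, leaving 22 Cyp, 10 Ugt, 18 Gst and 6 Sult genes.

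**Figure D1:**
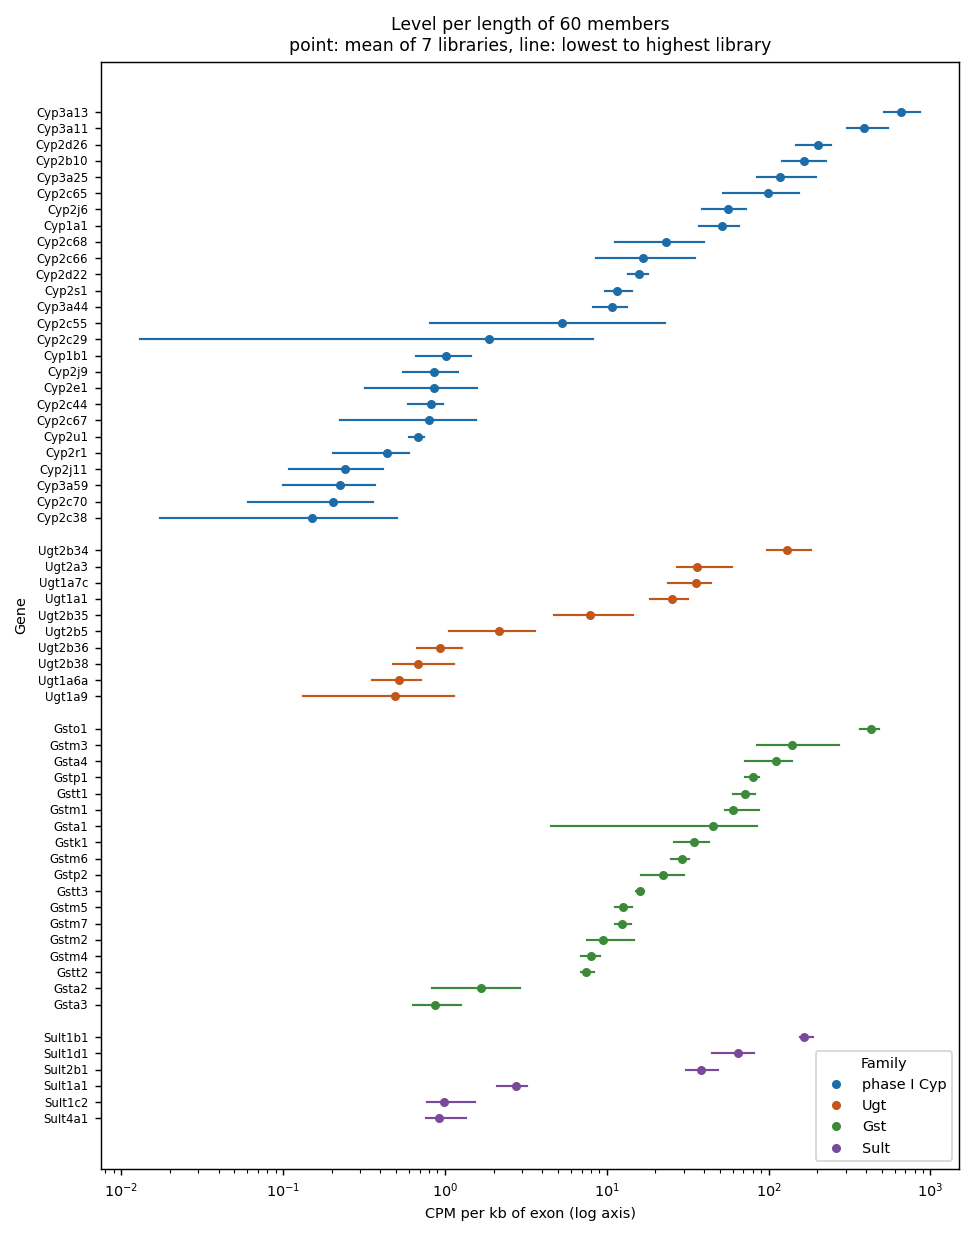
Level of each of the 60 members in CPM per kb of exon on a log axis, with the mean of 7 libraries as a point and the lowest to highest library as a line, ordered within the families. Cyp3a13, Gsto1, Ugt2b34 and Sult1b1 lead their families, and the longest lines belong to Cyp2c29, Cyp2c38, Cyp2c55 and Gsta1.

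The plot of levels shows that the spread between mice differs widely between members. The highest library was 1.11 times the lowest for Gstt3 and 1.21 times for Sult1b1. It was 18.8 times the lowest for Gsta1, 28.4 times for Cyp2c55 and 629 times for Cyp2c29, where the lowest library had 0.04 CPM, about 1 read. Part of the members share sequence, which bears on how reads were assigned to them. Of the 100-base windows of their transcripts, 50.4% to 58.5% were shared with another gene for the Ugt1a members, 80.6% for Gsta1 and 46.9% for Gstp2. Cyp2b10, Cyp2s1, Gsta4 and Gstt2 shared 0% of theirs.

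Between the genotypes, the members with the smallest p were Cyp2b10 and Cyp2s1, which had higher values in all 4 Ppara I-KO libraries than in lox/lox, with means 1.52 and 1.31 times those of lox/lox. By limma on log2(CPM + 1), 0 of 56 members passed an adjusted p of 0.05, where 0.0299% of the 13399 genes tested did (4 genes). The smallest adjusted p of a member was 0.761. At an unadjusted p of 0.05, 6 of 56 members (10.7%) were called, where 4.74% of all genes tested were. Of these, 4 were higher in Ppara I-KO (2.32% of all genes) and 2 were lower (2.42% of all genes). The lower ones include Ugt1a9, which met the filter through its lox/lox libraries, the group where it was higher. With per-library column totals as the scale the call held for 2 higher and 2 lower members and was lost for Cyp2d22 and Gsta4. Without lox/lox replicate 3 it held for 3 members, Cyp2b10, Cyp2s1 and Cyp2d22. Without I-KO replicate 4 there were 14 calls (25% of members against 6.84% of all genes), which are given below and include 5 of the 6, with Gsta4 lost. The 4 I-KO values lay all above the 3 lox/lox values for 3 members (2.91% of all genes) and all below for 1 member (3.28% of all genes). Smaller groups overlap less often, so each count without overlap on leaving out a library is set against all genes. It became 8 (14.3% against 11.9% of all genes) on leaving out lox/lox replicate 1 and 9 (16.1% against 10.9%) on leaving out lox/lox replicate 2. It became 7 (12.5% against 9.27%) on leaving out I-KO replicate 3 and 13 (23.2% against 12.5%) on leaving out I-KO replicate 4. The share of members was below that of all genes without lox/lox replicate 3, with 6 (10.7% against 15.8%). It was also below without I-KO replicate 1, with 5 (8.93% against 10.2%), and without I-KO replicate 2, with 6 (10.7% against 11.1%).

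Cyp2b10, whose product oxidises many drugs and whose gene is the standard readout of CAR in mouse liver, is found at chr7:25897620-25926624 (GRCm38). Its values, given here as for all genes in the order of the replicate numbers, were 268, 254 and 289 CPM in lox/lox and 432, 305, 435 and 476 CPM in I-KO libraries. The groups did not overlap, and I-KO replicate 2 lay nearest to lox/lox. Lox/lox averaged 270 ± 17.3 CPM (SD, n = 3) and I-KO 412 ± 74.3 CPM (SD, n = 4), 1.52 times as much. The log2 fold change was 0.59 (standard error 0.15, 95% confidence interval 0.25 to 0.92, unadjusted p = 0.0032 and adjusted p = 0.761 from limma). By exact two-sided permutation of the libraries the difference in mean CPM had p = 0.0571, and no p under 0.0286 can be reached with groups of 3 and 4. Groups without overlap give a permutation p at or near that limit in any case, here and for the members below.

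Cyp2s1, a P450 of epithelia outside the liver that responds to AhR, is found near it at chr7:25802475-25816913. It had 48.4, 48.2 and 48.8 CPM in lox/lox and 57.4, 56.9, 70.0 and 70.7 CPM in I-KO libraries. The lox/lox values lay close together, with an SD of 0.315 CPM, and the I-KO values formed a lower and a higher pair. The mean of I-KO was 1.31 times that of lox/lox, and the log2 fold change was 0.38 (standard error 0.10, unadjusted p = 0.0051 and adjusted p = 0.791 from limma, exact permutation p = 0.0571). Under all 16 other settings or sets of libraries that were tried, the unadjusted p from limma stayed at or below 0.033 for Cyp2b10 and 0.028 for Cyp2s1.

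Cyp2d22, a member of the subfamily of the human drug-oxidising CYP2D enzyme, had 53.2, 55.5 and 58.2 CPM in lox/lox and 62.7, 63.8, 66.6 and 70.8 CPM in I-KO libraries. The groups did not overlap, with an I-KO mean 1.19 times the lox/lox mean. The log2 fold change was 0.24 (standard error 0.08, unadjusted p = 0.016 and adjusted p = 0.954 from limma). The exact permutation p of 0.0286 was the smallest possible, which follows largely from the lack of overlap and adds little to it. The unadjusted p of Cyp2d22 from limma was 0.064 without lox/lox replicate 1 and 0.078 with column totals. Cyp2b10, Cyp2s1 and Cyp2d22 also went together over the 7 libraries, with a Pearson correlation of log2(CPM + 1) of 0.91 between Cyp2b10 and Cyp2s1, 0.88 between Cyp2b10 and Cyp2d22 and 0.94 between Cyp2s1 and Cyp2d22. The genotype difference is part of these values, and the 7 points share libraries and scaling. Gstm7 (0.87 with Cyp2b10) and Sult1b1 (0.79 with Cyp2s1) were the next most alike members.

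The other Cyp genes did not separate the genotypes. Cyp3a13 had 2077, 1589 and 1519 CPM in lox/lox and 1816, 2098, 2563 and 1979 CPM in I-KO, so the groups overlapped (log2 fold change 0.29, 95% confidence interval -0.04 to 0.62). Cyp3a11 had 1876, 1719 and 1898 CPM in lox/lox and 1866, 1557, 2191 and 2767 CPM in I-KO (log2 fold change 0.16, 95% confidence interval -0.23 to 0.56). For both Cyp3a genes the I-KO values thus overlapped with those of lox/lox. Cyp1a1, the classical AhR target that oxidises aromatic hydrocarbons, had 104, 179 and 105 CPM in lox/lox and 153, 106, 178 and 184 CPM in I-KO. Low and high values of Cyp1a1 were found in both genotypes, and its log2 fold change of 0.27 had a 95% confidence interval from -0.27 to 0.82. The ethanol-oxidising Cyp2e1 (0.69 to 3.39 CPM in lox/lox, 1.06 to 2.56 CPM in I-KO) and the vitamin D 25-hydroxylase Cyp2r1 (0.99 to 1.09 and 0.43 to 1.27 CPM) were low throughout. The epoxygenase genes Cyp2j6 (log2 fold change 0.19, 95% confidence interval -0.29 to 0.67) and Cyp2j9 (0.08, -0.39 to 0.55), the fatty acid hydroxylase gene Cyp2u1 (0.06, -0.14 to 0.25) and Cyp3a44 (0.05, -0.31 to 0.41) had intervals that include 0. Over the 22 Cyp genes tested, 15 log2 fold changes were above 0 and 7 below, with a median of 0.06, against 0.0017 over all genes. When single libraries were dropped, this median ran from -6.9e-05 (I-KO replicate 4 dropped, 11 above and 11 below) to 0.18 (I-KO replicate 2 or lox/lox replicate 3 dropped), with 0.00057 when lox/lox replicate 2 was dropped.

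**Figure D2:**
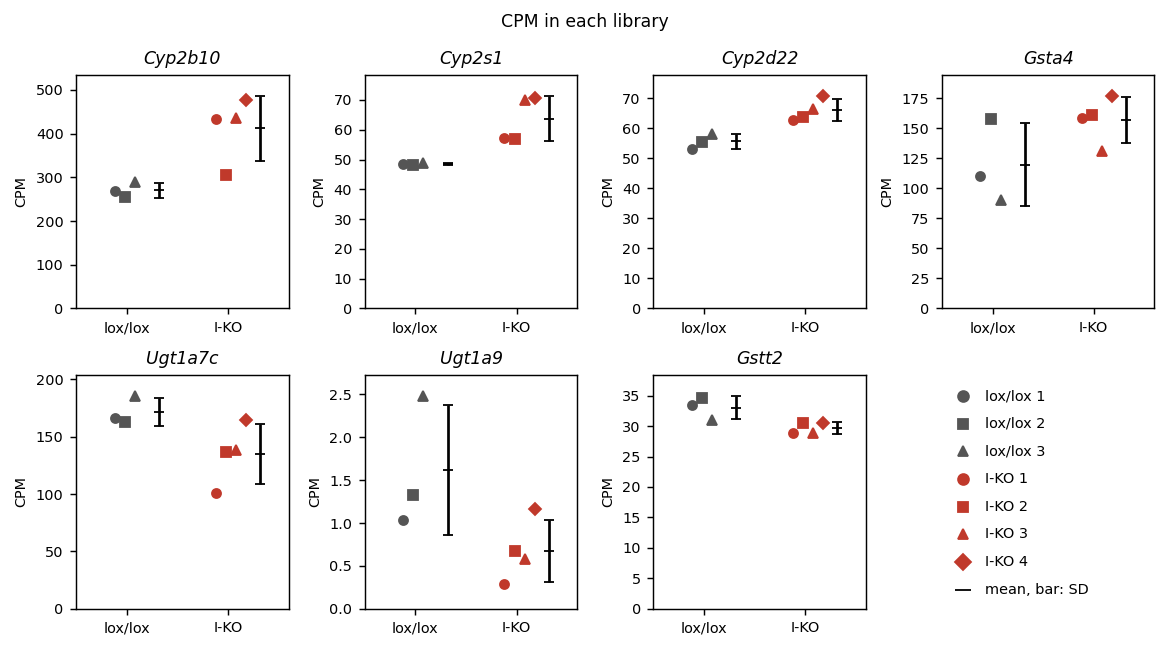
CPM in each library of the 7 members with an unadjusted p below 0.05 or without overlap between the genotypes, with lox/lox in grey, I-KO in red and bars for the mean and SD. Cyp2b10, Cyp2s1 and Cyp2d22 lie higher in all 4 I-KO libraries and Gstt2 lower, while the groups overlap for Gsta4, Ugt1a7c and Ugt1a9.

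Among the Ugt genes, Ugt1a7c and Ugt1a9 had an unadjusted p below 0.05, with lower means in Ppara I-KO and overlap between the genotypes. The Ugt1a locus on chromosome 1 makes several enzymes by joining a first exon of each to the same later exons, so the 4 members share much of their sequence and are not independent. Ugt1a7c (chr1:88095062-88220002) had 166, 163 and 185 CPM in lox/lox and 101, 137, 139 and 164 CPM in I-KO libraries. The I-KO values of Ugt1a7c lay below the lox/lox values except in I-KO replicate 4, which lay just above lox/lox replicate 2. The mean was 171 ± 12.2 CPM (SD, n = 3) and 135 ± 26.1 CPM (SD, n = 4), and the log2 fold change was -0.36 (standard error 0.15). Ugt1a9 was near the limit of detection in this tissue, with 1.04, 1.33 and 2.48 CPM in lox/lox and 0.29, 0.67, 0.58 and 1.16 CPM in I-KO libraries. Its log2 fold change on log2(CPM + 1) was -0.63 (standard error 0.21), which understates the ratio of the means of 0.418. Unadjusted p-values from limma were 0.042 for Ugt1a7c and 0.015 for Ugt1a9 (adjusted p = 0.954 for both), and the exact permutation p was 0.0857 for each. Without lox/lox replicate 3 the unadjusted p from limma was 0.127 for Ugt1a7c and 0.064 for Ugt1a9. Ugt1a9 exceeded 1 CPM in every lox/lox library but, of the I-KO libraries, only in replicate 4. It thus met the filter through the group where it was higher, so its call is a description only.

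Ugt1a1, the enzyme that conjugates bilirubin, had 56.9, 54.7 and 70.9 CPM in lox/lox and 41.0, 46.2, 56.9 and 65.8 CPM in I-KO, so the groups overlapped (log2 fold change -0.22, 95% confidence interval -0.60 to 0.15). Ugt1a6a, a phenol-conjugating form, had 2.27, 3.05 and 2.00 CPM in lox/lox and 1.53, 2.24, 2.01 and 2.69 CPM in I-KO. All 4 Ugt1a members had a log2 fold change below 0, with a median of -0.29. The members most like Ugt1a9 over the 7 libraries were Ugt1a7c (Pearson correlation 0.90), Ugt1a1 (0.84) and Cyp2c65 (0.81). The 6 Ugt2 members on chromosome 5, which conjugate steroids, bile acids and drugs, had 3 log2 fold changes above 0 and 3 below, with a median of 0.03. The most abundant, Ugt2b34, had 496, 520 and 545 CPM in lox/lox and 424, 538, 595 and 792 CPM in I-KO, with the lowest and the highest value of Ugt2b34 both in I-KO. Ugt2b5, at 3.01 to 6.36 CPM in lox/lox and 1.96 to 6.74 CPM in I-KO, had the lowest log2 fold change of the Ugt2 members (-0.38, 95% confidence interval -1.10 to 0.35). Over the 10 Ugt genes the median was -0.17. It was -0.073 when lox/lox replicate 2 was dropped, -0.081 when I-KO replicate 1 was dropped and -0.021 when both were.

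Among the Gst genes, Gsta4, whose product clears 4-hydroxynonenal from oxidised lipids, was the 1 member at an unadjusted p below 0.05. It had 111, 158 and 90.8 CPM in lox/lox and 159, 161, 132 and 177 CPM in I-KO libraries. The groups overlapped, since lox/lox replicate 2 lay at the I-KO level. For Gsta4 the log2 fold change was 0.42 (standard error 0.18, unadjusted p = 0.045 and adjusted p = 0.954 from limma, exact permutation p = 0.143), and without lox/lox replicate 3 its unadjusted p from limma was 0.195. Gstt2, a theta-class enzyme, had 33.5, 34.7 and 30.9 CPM in lox/lox and 28.8, 30.5, 28.8 and 30.5 CPM in I-KO libraries. The Gstt2 groups did not overlap, but the gap between lox/lox replicate 3 and the highest I-KO library was small. The log2 fold change of Gstt2 was -0.15 (standard error 0.08, unadjusted p = 0.091 and adjusted p = 0.954 from limma). Its exact permutation p of 0.0286 was the smallest possible, but Gstt2 is named for its lack of overlap, from which that p largely follows.

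Gsta1 fell into a low and a high level that did not follow genotype. It had 4.34, 81.4 and 4.44 CPM in lox/lox and 75.4, 64.5, 69.8 and 5.70 CPM in I-KO libraries. The 3 low libraries were lox/lox replicates 1 and 3 and I-KO replicate 4, and the log2 fold change of 1.55 had a 95% confidence interval from -0.98 to 4.09 (exact permutation p = 0.429). Of the windows of Gsta1, 64.7% were shared with the neighbouring gene model Gm3776, which had 47.5, 40.9 and 50.8 CPM in lox/lox and 38.9, 29.4, 35.1 and 81.4 CPM in I-KO. The 3 libraries low in Gsta1 were the 3 highest in Gm3776, and what the sharing of reads between them adds to this was not tested. The most abundant Gst gene, Gsto1, had 877, 848 and 747 CPM in lox/lox and 905, 938, 967 and 807 CPM in I-KO (log2 fold change 0.13, 95% confidence interval -0.09 to 0.35). Gstp2 had the most negative log2 fold change of the family (-0.23), with 18.1, 31.4 and 33.4 CPM in lox/lox and 21.8 to 23.4 CPM in I-KO. Dropping lox/lox replicate 1, the lowest library of Gstp2, gave -0.50 (unadjusted p = 0.00059 and adjusted p = 0.539 from limma), and dropping lox/lox replicate 3 gave -0.076. All 7 mu-class genes on chromosome 3, Gstm1 to Gstm7, were tested, with 5 log2 fold changes above 0 and 2 below and a median of 0.08. The theta-class genes Gstt1 (log2 fold change 0.11, 95% confidence interval -0.16 to 0.38) and Gstt3 (0.05, -0.12 to 0.22) and the mitochondrial Gstk1 (0.05, -0.37 to 0.46) had intervals that include 0. Over the 18 Gst genes the median was 0.05. It ran from -0.036 (I-KO replicate 4 dropped) to 0.12 (I-KO replicate 2 dropped).

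The log2 fold changes of the Sult genes lay between -0.12 and 0.19. Sult1b1 had 456, 443 and 443 CPM in lox/lox and 433, 457, 524 and 488 CPM in I-KO, and the 95% confidence interval of its log2 fold change of 0.08 reached from -0.11 to 0.28. Sult1d1, which sulfates catecholamines, had 154, 171 and 171 CPM in lox/lox and 110, 153, 158 and 199 CPM in I-KO (log2 fold change -0.12, 95% confidence interval -0.51 to 0.27). The Sult1d1 values of I-KO spread on both sides of those of lox/lox. Sult2b1 had 160, 145 and 122 CPM in lox/lox and 192, 143, 177 and 122 CPM in I-KO, again with overlap. Sult1c2 had the largest log2 fold change (0.19), with 1.43 to 1.93 CPM in lox/lox and 1.44 to 2.85 CPM in I-KO. Of the 6 genes, 5 log2 fold changes were above 0, with a median of 0.11 (0.037 when lox/lox replicate 3 was dropped), and 0 had an unadjusted p below 0.05 by limma.

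**Figure D3:**
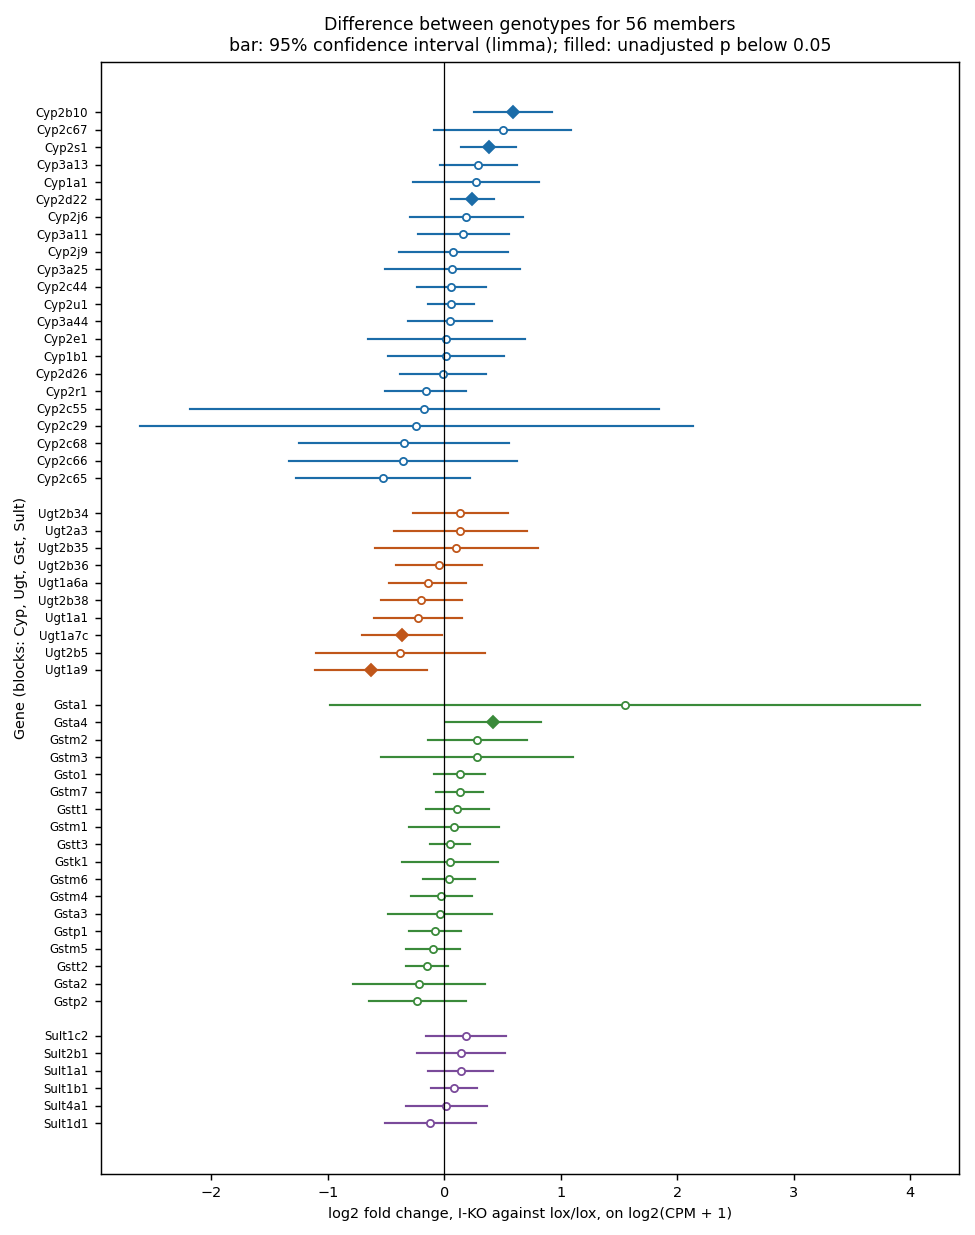
Log2 fold change of Ppara I-KO against lox/lox on log2(CPM + 1) for the 56 tested members, ordered within the families, with 95% confidence intervals from limma and filled marks for an unadjusted p below 0.05. Most intervals include 0, and those of Cyp2c29, Cyp2c55 and Gsta1 are the widest.

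The plot of fold changes also shows the precision of the comparison. On the log2 scale the 95% confidence interval reached a median of 0.38 to either side for a member and 0.24 for all genes. At that width, an estimated difference smaller than 0.38 has an interval that includes 0. The widths differed between members, and those of Cyp2d22 and Ugt1a7c were narrow enough to exclude 0 at smaller differences. The sign was not stable for several abundant members. The range with each library left out was -0.10 to 0.14 for Cyp2d26, -0.19 to 0.21 for Cyp3a25, -0.09 to 0.32 for Ugt2a3, -0.02 to 0.28 for Ugt2b34, -0.19 to 0.33 for Ugt2b35, -0.04 to 0.52 for Gstm3 and -0.25 to 0.03 for Sult1d1.

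The widest spread between mice was found in the Cyp2c genes of chromosome 19, which encode epoxygenases of arachidonic acid and drug-oxidising enzymes. Of these, 8 lie within 39007019 to 40187333, from Cyp2c55 to Cyp2c70. Cyp2c65, the most abundant, had 194, 215 and 262 CPM in lox/lox and 101, 112, 166 and 298 CPM in I-KO libraries. For Cyp2c65 the first 3 I-KO libraries lay under the lox/lox range, while I-KO replicate 4 exceeded it. Cyp2c66 had 29.1, 29.5 and 43.9 CPM in lox/lox and 16.6, 18.0, 22.0 and 68.7 CPM in I-KO, and Cyp2c68 had 36.5, 36.8 and 56.8 CPM against 19.4, 21.5, 41.5 and 69.1 CPM. Cyp2c55 had 4.79, 4.85 and 11.1 CPM in lox/lox and 1.92, 1.61, 4.34 and 45.7 CPM in I-KO, and Cyp2c29 had 1.48, 1.29 and 9.67 CPM against 0.29, 0.04, 2.49 and 25.2 CPM. In all of these I-KO replicate 4 was the highest library and lox/lox replicate 3 the second. The same order held for Cyp2c38, which had at most 1.45 CPM.

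Cyp2c67 and Cyp2c70, which lie in the same stretch, had the opposite order. Cyp2c67 had 1.18, 1.16 and 0.39 CPM in lox/lox and 2.01, 2.71, 1.59 and 0.70 CPM in I-KO libraries, and Cyp2c70 had 0.44, 0.34 and 0.12 CPM against 0.62, 0.71, 0.42 and 0.17 CPM. For both genes lox/lox replicate 3 was the lowest library and I-KO replicate 4 the second lowest. I-KO replicate 4 was 2.36 times the mean of the other I-KO libraries for Cyp2c65, 3.64 times for Cyp2c66, 17.4 times for Cyp2c55 and 26.8 times for Cyp2c29, but 0.333 times for Cyp2c67. Cyp2c44, farther along the chromosome, ranged only from 1.27 to 2.11 CPM. Cyp2c67 shared 23.7% of its windows with other genes and Cyp2c68 19.8%, against 7.82% for Cyp2c65, 1.36% for Cyp2c29 and 0% for Cyp2c55. Picked after the values were seen, Cyp2c65 was most like Cyp2c68 (Pearson correlation 0.96 over 7 libraries), Ugt1a1 (0.94) and Cyp2c66 (0.94). Beside this, markers of crypt progenitors summed to 713 CPM in I-KO replicate 4, 560 CPM in lox/lox replicate 3 and 397 to 672 CPM in the others. Of these markers only Olfm4 was highest in I-KO replicate 4 (273 CPM against at most 203 CPM). The 3 detected markers of distal gut summed to 61.6, 83.6 and 55.7 to 91.2 CPM in the same order, most of it from Car4. Aqp8 had 4.22 CPM in I-KO replicate 4, 7.31 CPM in lox/lox replicate 3 and 1.02 to 4.07 CPM in the others. Slc10a2 had at most 0.51 CPM. The part of these markers in the Cyp2c pattern was not tested.

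**Figure D4:**
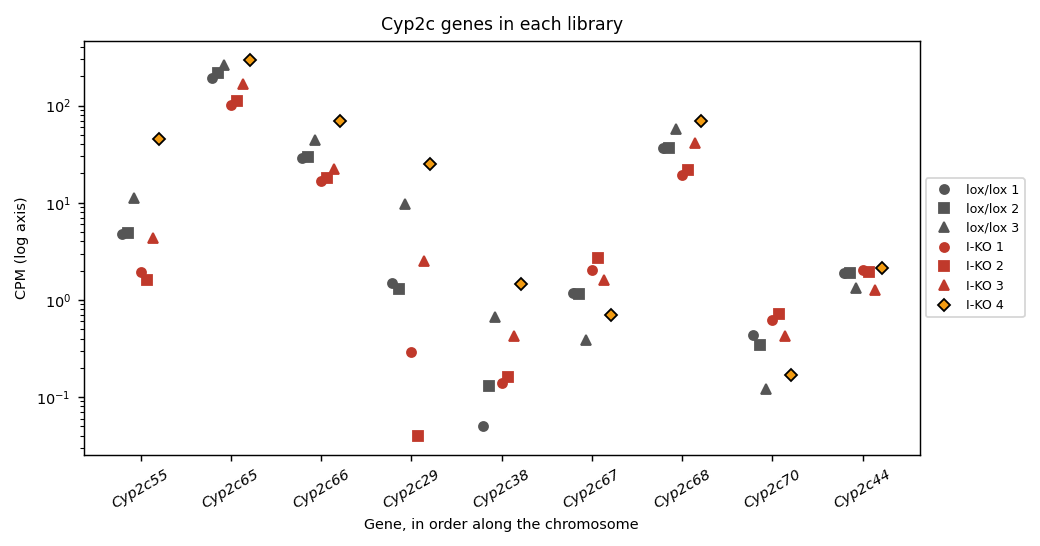
CPM on a log axis of the Cyp2c genes of chromosome 19 in each library, in the order of the genes along the chromosome, with lox/lox in grey, I-KO replicates 1 to 3 in red and I-KO replicate 4 in orange. I-KO replicate 4 is highest from Cyp2c55 to Cyp2c38 and in Cyp2c68, and lies near the bottom for Cyp2c67 and Cyp2c70.

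In the 4 I-KO libraries together, 5 of the 6 tested genes of this stretch had a log2 fold change below 0 and none passed an unadjusted p of 0.05. The values were -0.52 for Cyp2c65, -0.35 for Cyp2c66, -0.34 for Cyp2c68, -0.24 for Cyp2c29 and -0.17 for Cyp2c55, against 0.50 for Cyp2c67. For Cyp2c29 and Cyp2c55 the direction turns with the scale, since the mean CPM of I-KO was 1.69 and 1.93 times that of lox/lox. The library labelled I-KO replicate 4 carried high values of many other members as well. It was the highest of the 7 libraries for 30 of 56 members (53.6%), 14 of them Cyp, 10 Gst, 4 Ugt and 2 Sult genes, while it was highest for 19.8% of all genes tested. It was the lowest for 2 members (3.57%), where 17.4% of all genes tested were lowest in it. I-KO replicate 1 was the lowest for 15 members (26.8% against 19.3% of all genes). I-KO replicate 2 was the lowest for 11 members (19.6% against 8.16%). The median of log2(CPM + 1) of I-KO replicate 4 over the lox/lox mean was 0.44 for the Cyp genes, 0.19 for Ugt, 0.21 for Gst and 0.09 for Sult. In I-KO replicate 1 it was 0.10 for Cyp, -0.45 for Ugt, 0.0088 for Gst and 0.08 for Sult.

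**Figure D5:**
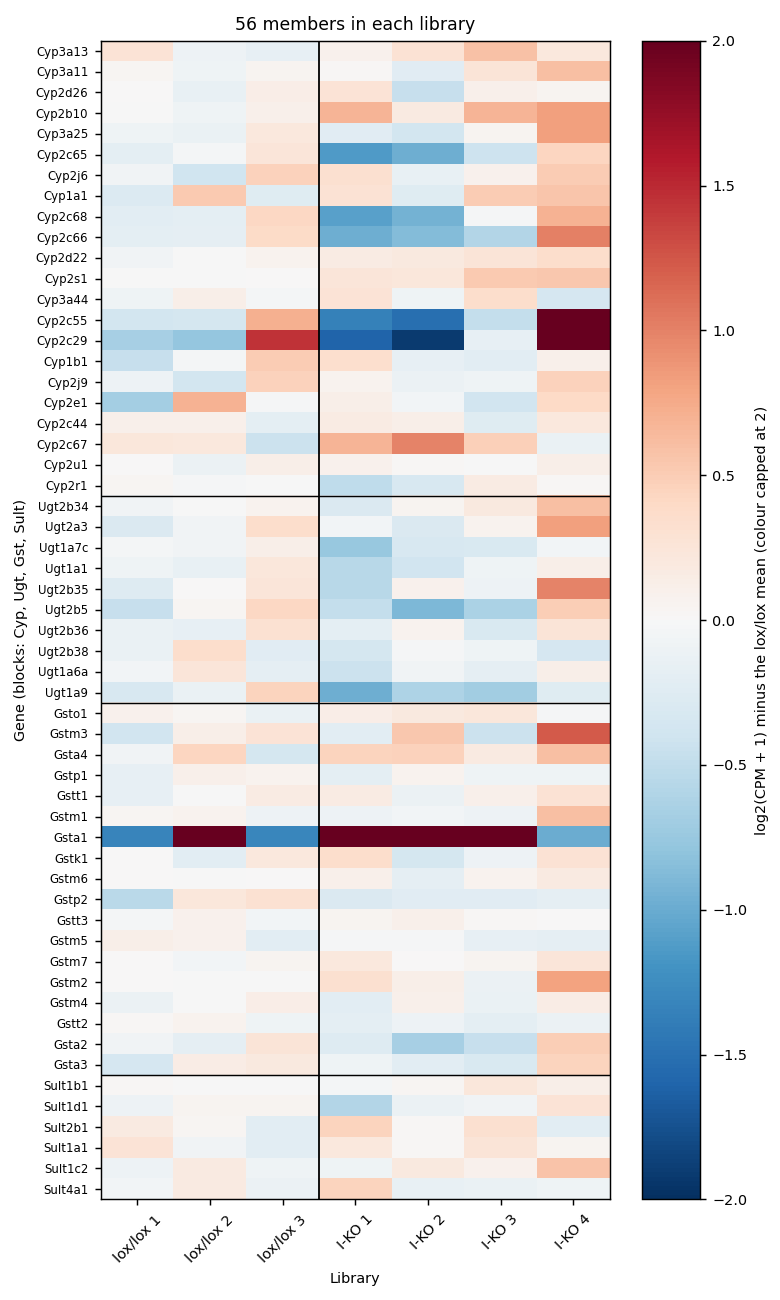
Log2(CPM + 1) of each of the 56 tested members minus its lox/lox mean, with 1 column for each of the 7 libraries and colours from blue (lower) to red (higher), capped at 2 in either direction. I-KO replicate 4 is red for most Cyp, Gstm and Ugt2 genes, the Ugt1a genes are blue in I-KO replicate 1, and Gsta1 takes opposite colours within both genotypes.

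Because of this library the comparison was repeated without it, a setting that was among those planned but whose members are named after their values were seen. Leaving out the highest library of a gene favours lower values in I-KO, so these counts are a description. At an unadjusted p of 0.05 by limma, 9 members were then lower in Ppara I-KO (3.8% of all genes tested) and 5 higher (3.04% of all genes), and 0 passed an adjusted p of 0.05 (smallest adjusted p = 0.489). The lower ones were Cyp2c55, Cyp2c65, Cyp2c66 and Cyp2c68, the glucuronosyltransferases Ugt1a1, Ugt1a7c, Ugt1a9 and Ugt2b5, and Gsta2. Their log2 fold changes lay between -1.11 for Cyp2c55 and -0.34 for Ugt1a1, with -0.84 for Cyp2c65 and -0.81 for Cyp2c66. Without I-KO replicate 4, Ugt1a9 met the filter only through its lox/lox libraries, the group where it was higher. The higher ones were Cyp2b10 (0.51), Cyp2c67 (0.71), Cyp2s1 (0.33), Cyp2d22 (0.21) and Gsta1 (2.40). All 10 Ugt genes then had a log2 fold change below 0, with a median of -0.21. Some lay close to 0, with -0.017 for Ugt2b34 and -0.091 for Ugt2a3. The Ugt1a genes among them share sequence and are not independent, and I-KO replicate 4 was the highest library for 4 of the Ugt genes.

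Other genes of xenobiotic metabolism were taken from lists of receptors, of enzymes that supply electrons and cosubstrates, of further conjugating enzymes and of transporters. Of the 79 genes tested, 0 passed an adjusted p of 0.05 by limma. At an unadjusted p of 0.05, 1 was higher and 7 were lower, together 10.1% against 4.74% of all genes. The median log2 fold change over the lists was 0.01. The receptors that control the families overlapped between the genotypes, with 123 and 132 CPM on average in lox/lox and I-KO for Nr1i2 (PXR), 79.6 and 85.2 CPM for Nr1i3 (CAR), 20.48 and 20.27 CPM for Ahr and 330 and 323 CPM for Nfe2l2 (NRF2). Among the regulators Hsp90aa1, a chaperone that holds AhR in the cytosol, had an unadjusted p below 0.05, with 371 to 433 CPM in lox/lox and 219 to 369 CPM in I-KO (log2 fold change -0.48).

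Of the conjugating and oxidising enzymes outside the families, 2 of 27 were lower at an unadjusted p of 0.05 (2.42% of all genes) and 0 higher. Akr1b8, an aldo-keto reductase, had 5.83, 7.94 and 4.64 CPM in lox/lox and 2.49, 3.89, 2.44 and 3.27 CPM in I-KO libraries. Mgst1, a membrane-bound glutathione transferase, had 93.5, 102 and 99.4 CPM in lox/lox and 66.7, 69.7, 63.7 and 87.3 CPM in I-KO. Neither gene overlapped between the groups, with log2 fold changes of -0.82 (standard error 0.18, adjusted p = 0.572 from limma) for Akr1b8 and -0.46 (standard error 0.11, adjusted p = 0.761 from limma) for Mgst1. Of 18 transporters, 2 were lower at the same threshold, against the same 2.42% of all genes, and 0 higher. Abcg2, which pumps conjugates and drugs back into the lumen, had 193, 181 and 179 CPM in lox/lox and 152, 156, 156 and 135 CPM in I-KO libraries. Slc22a5, the carnitine transporter, had 135, 141 and 133 CPM in lox/lox and 96.8, 105, 124 and 103 CPM in I-KO libraries. The groups did not overlap for either transporter, with log2 fold changes of -0.30 (adjusted p = 0.822 from limma) for Abcg2 and -0.35 (adjusted p = 0.822 from limma) for Slc22a5.

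Among the genes that respond to PXR and CAR outside the families, Aldh1a7, an aldehyde dehydrogenase, had 35.1, 33.5 and 43.1 CPM in lox/lox and 23.5, 26.0, 20.7 and 33.2 CPM in I-KO libraries. It lay on the opposite side to Cyp2b10, with all I-KO values below those of lox/lox and a difference of -0.52 on the log2 scale (limma, adjusted p = 0.83). The other 9 genes of that list had an unadjusted p above 0.05. Over all 10 genes of the list, 6 log2 fold changes were above 0 and 4 below, with a median of 0.07. Of the genes that supply electrons and cosubstrates, Cyb5r3, a reductase of cytochrome b5, had 500, 497 and 457 CPM in lox/lox and 549, 540, 606 and 575 CPM in I-KO (log2 fold change 0.23), and Slc35b3, a carrier of activated sulfate into the Golgi, had 32.3 to 38.8 CPM and 27.9 to 32.3 CPM (log2 fold change -0.22). Of the 4 tested genes that respond to AhR outside the families, 0 had an unadjusted p below 0.05.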

How the data were processed

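RNA of 7 mouse duodena, 3 Ppara lox/lox and 4 Ppara I-KO, was measured, with groups and replicate numbers taken from the labels. Stranded mRNA libraries were sequenced with 100 base single reads, and the submitters' processing notes name FastQC 0.11.2, TopHat2 2.0.13, Picard 1.80, HTSeq 0.6.1, edgeR and the mm10 build. The authors deposited a signal for 14795 genes, which is CPM (relative to adjusted library sizes) rounded to 2 decimals, and 1 line without a gene name was dropped. The members and lists were chosen with earlier results of these data known. Nothing in the labels says beyond a replicate number how the mice were kept apart, so p-values measure the spread between these 7 libraries. No 2 replicates were alike within sampling noise (lowest ratio of chi-square to degrees of freedom 13.5).

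Genes had to exceed a CPM of 1 in 3 or more libraries, which left 13399. Their log2(CPM + 1) values were compared between genotypes by limma 3.58.1 (R 4.3.3) without further terms, and p-values were adjusted over all genes by the Benjamini-Hochberg method. Confidence intervals of 95% come from limma. The fit was tested on simulated data. Named are members with an unadjusted p below 0.05 or without overlap, the 5 of each family with the highest level per kb, the largest rise and fall of each family, list genes with an unadjusted p below 0.05, and others that are given as chosen afterwards or as part of a locus or pathway. Gene positions and exon lengths come from GENCODE M21 on GRCm38, which held 59 members by symbol and 1, Cyp2c44, through a synonym. Upstream sequences come from RefSeq on GRCm38.p6, with 6 members (Cyp2c44, Cyp2d22, Cyp2u1, Gsta4, Gstt2 and Sult4a1) not analysed here. Tests on counts were planned but not run, since whole reads could not be recovered for nearly all values. Alternatives were other scalings, no filter, a pseudocount of 0.5, an intensity trend with robust fit, an adjusted p of 0.1, the replicate number as a block, sets of libraries left out and, added after the data were seen, sample quality weights. Python 3.11.15, pandas 2.3.3, numpy 2.4.6 and matplotlib 3.10.9 were used.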

Additional observations from a re-analysis of the deposited data

Results flagged for a closer look

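Of 70 quantities searched in the 4 I-KO libraries for a library far from the others, 7 passed Dixon's 95% limit for 4 samples, where chance alone gives about 1 in 20, or 3.5. The figure given is the gap of the extreme library to its nearest neighbour over the range of the group. In the library labelled I-KO replicate 4, Cyp2c29 (0.9025, 25.2 CPM against at most 2.49 CPM), Cyp2c55 (0.9381, 45.7 CPM against at most 4.34 CPM), Cyp2c66 (0.8972, 68.7 CPM against at most 22.0 CPM) and Gstm1 (0.9435, 129 CPM against at most 81.6 CPM) were far above the other I-KO libraries. Gsta1 was far below them in the same library (0.8433, 5.70 CPM against at least 64.5 CPM). In I-KO replicate 1, Sult4a1 was far above (0.8986, 3.40 CPM against at most 2.07 CPM), as was the sum of the pancreatic acinar markers (0.9568, 471 CPM against at most 49.1 CPM). The part of these libraries' tissue make-up in the member values was not tested.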

How the results depend on the processing

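Under all alternatives that were run, 0 members passed an adjusted p of 0.05, and also 0 at an adjusted p of 0.1. The edgeR and DESeq2 tests that had been planned were not run, because in 5 of 7 libraries too few values were close to a whole number of reads (under 95% within 0.1 read). The number at an unadjusted p of 0.05 by limma, 6 in the report, was 16 with the replicate number as a block (replicate block; 28.6% of members against 7.58% of all genes), 10 without I-KO replicate 4 and lox/lox replicate 3 together (chosen after seeing the data; 18.5% against 5.91%), and 3 (5.36% against 5.18%, without lox/lox replicate 3) to 14 (25% against 6.84%, without I-KO replicate 4) with each library left out. The number without overlap, 4 in the report, was 11 without I-KO replicate 1 and lox/lox replicate 2 together, the libraries with pancreatic transcripts (19.6% of members against 16.3% of all genes), 16 without I-KO replicate 4 and lox/lox replicate 3 together (29.6% against 23.5%), and 5 (8.93% against 10.2%) to 13 (23.2% against 12.5%) with each library left out. The median log2 fold change of the Sult genes, 0.11, was 0.042 without I-KO replicate 4 and lox/lox replicate 3 together and 0.037 to 0.14 with each library left out. Column totals moved the median of all genes by -0.03 on the log2 scale. Same-numbered libraries correlated by -0.01, 0.18 and -0.0092 in their deviations from the group means. These values are too few to decide whether the numbers pair the mice, and the labels do not say. The block leaves I-KO replicate 4 without a partner, so its log2 fold changes are the same as those without that library. The 16 calls with the block include all 6 members of the report. Directions reversed for Cyp3a25 (-0.19), Gstm3 (-0.035), Ugt2a3 (-0.091), Ugt2b34 (-0.017) and Ugt2b35 (-0.19) under the replicate block, Gstp1 (0.011) and Sult1d1 (0.057) without I-KO replicate 1 and lox/lox replicate 2 together, Cyp3a25 (-0.0022) with sample quality weights, and Cyp2d26 (0.040), Cyp3a25 (-0.083) and Ugt2b35 (-0.070) without I-KO replicate 4 and lox/lox replicate 3 together. With each library left out, Cyp2d26 ranged from -0.10 to 0.14, Cyp3a25 from -0.19 to 0.21, Gstm3 from -0.035 to 0.52, Sult1d1 from -0.25 to 0.031, Ugt2a3 from -0.091 to 0.32, Ugt2b34 from -0.017 to 0.28 and Ugt2b35 from -0.19 to 0.33. The cause of these changes was not tested beyond the libraries left out. Depth limits Ugt1a9, Cyp2c29 and Cyp2c38, whose lowest libraries hold few reads.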

Other observations

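The members below the filter were not tested. Cyp2j11 had 0.21 to 0.51 CPM in lox/lox and 0.31 to 0.79 CPM in I-KO libraries, and Cyp3a59 had 0.39 to 0.63 CPM and 0.20 to 0.74 CPM. For both genes the highest library was I-KO replicate 4. Cyp1b1, which oxidises steroids and aromatic compounds, had its highest value of 8.53 CPM in lox/lox replicate 3 and its lowest of 3.85 CPM in lox/lox replicate 1, with the 4 I-KO libraries between 4.77 and 7.47 CPM.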
